A study of Mus musculus with 12 samples.

Results

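Marginal zone (MZ) B cells line the rim of the splenic white pulp, where blood leaves the sinus, and answer blood-borne antigens quickly, with antibody made largely without T cell help. Follicular (FO) B cells, the larger subset, recirculate through the follicles of spleen and lymph nodes and supply most germinal centre responses. The MZ fate depends on Notch2, which stromal cells bearing Delta-like 1 engage, and MZ cells are held in place by receptors for sphingosine 1-phosphate and by integrins, against the pull of Cxcr5 towards the follicle. The RNA of sorted control MZ cells was compared here with that of sorted FO cells over the whole transcriptome: 8 of the 12 libraries of the study entered, and 13843 of 43629 genes in the count table passed the filter on low counts and were tested.

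Both cell types came from mouse spleen, and all libraries carry the strain label Zfp36l1tm1.1Tnr. The 4 control MZ libraries (replicates 3, 4, 5 and 6) have the genotype ERT2cre/ERT2cre, and the 4 FO libraries (replicates 3, 4, 7 and 8) have the genotype Zfp36l1fl/fl cre-, so the FO cells carry the floxed allele of the RNA-binding protein gene Zfp36l1 without cre. The promoter that drives ERT2cre, the age of the mice and whether replicates came from separate animals are unstated in the labels. The p-values therefore rest on library-to-library spread, part of which may be technical. MZ replicates 3 and 4 (chi-square per gene 6.48) and FO replicates 7 and 8 (5.78) were more alike than any other pair within a group (17.4 to 25.9), though further apart than sampling noise, where the value is near 1. With each of these pairs summed to 1 library, an alternative chosen after the values were seen, 10947 genes were called below in place of 11278. B cells were enriched magnetically and then sorted, MZ cells as CD21hi CD23− and FO cells as CD21+ CD23+. The labels give both gates as B220+ and CD93+.

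The design text names a Clontech SMARTer kit on 5 ng of RNA and 100 bp paired reads for MZ cells, and a stranded TruSeq mRNA kit and 100 bp single reads for FO cells. Cell type, kit, read layout and genotype therefore cannot be told apart in any difference below, and a level per cell cannot be told apart from the number of cells that hold the RNA. Depth was 33837209 to 39659730 counts in MZ and 36958259 to 40664963 in FO libraries. FO replicate 4 stood apart from the other FO libraries at 449 tested genes (3.24%), against 117 to 237 genes for each of the other 7 libraries, by Dixon's ratio of the gap to the range. Levels are TMM-scaled CPM, that is counts relative to the size of each library. Lists of values give MZ replicates 3, 4, 5 and 6 and FO replicates 3, 4, 7 and 8 in that order, and "against" sets MZ before FO. A difference is the log2 of MZ over FO with its standard error (SE), and a gene is called where its p, adjusted over all tested genes in edgeR's quasi-likelihood test, is under 0.05. "Higher" and "lower" without further remark describe called genes in MZ relative to FO cells.

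Cr2 and Fcer2a, the sort markers on which the gates differ, differed at the RNA level as the gates chose them, which is a check and not a result. Cr2, which encodes the complement receptor CD21, stood at 4188, 4350.1, 3698 and 3804 CPM in MZ libraries and 1483, 1104, 1434 and 1269 in FO libraries. Fcer2a, which encodes the IgE receptor CD23, stood at 166, 153, 116 and 67.9 against 1375, 1111, 1254 and 1238. Ptprc, whose product in its B220 form was in both gates, stood at 1421 ± 135 against 2857 ± 189 (mean ± SD, n = 4 and 4). Cd93 RNA, by contrast, was at 0.581, 0.447, 1.03 and 0.572 CPM in MZ and 22.4, 16.9, 17.9 and 18.7 in FO libraries (log2 −4.83, SE 0.20), although both gates name its product. Among the markers that no gate used, Cd1d1 and S1pr3 are described below.

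Several markers of other cell types were low or absent in both groups, while others, described below, were higher in MZ libraries. Defining markers of T cells (Cd3e, Cd4, Thy1), neutrophils (S100a8, Ly6g, Mpo), NK cells (Ncr1, Gzmb) and stroma (Col1a2, Pdgfra, Kdr) were at or near 0 and none of those 11 genes passed the filter. Over all tested genes 42.6% were higher and 38.8% lower. Of the listed T cell, NK cell, neutrophil, dendritic cell, erythroid and stromal genes, 4, 3, 1, 7, 5 and 3 were tested, with 1, 1, 1, 2, 1 and 0 higher and 2, 0, 0, 1, 1 and 2 lower. These small counts moved with single libraries: without FO replicate 4, 5 dendritic and 3 erythroid genes were higher, and 3 erythroid genes without MZ replicate 3 or 4. Without any other FO library 2 erythroid genes were higher. Without MZ replicate 6, 2 NK cell genes were higher. The T cell gene lost its call without FO replicate 3, 7 or 8 or MZ replicate 3, 4 or 6, and the neutrophil gene without FO replicate 7 or 8. The NK cell list summed to 17.7 to 23.5 CPM in MZ and 2.69 to 3.71 in FO libraries. The sums of the T cell list (140.2 to 173 against 287 to 313 CPM) and of the stromal list (262 to 287 against 385 to 458) rest mainly on Cd2 and Pecam1, adhesion genes that B cells also express. Platelet genes were higher in MZ libraries: Ppbp, a platelet chemokine, was at 5.40, 4.55, 7.95 and 4.52 CPM against 0.365, 0.583, 0.438 and 0.759, and Pf4, platelet factor 4, at 2.61, 1.79, 3.55 and 1.99 against 0.183, 0.0921, 0.234 and 0.108. Set beside the same shares, 9 of 10 tested platelet genes were higher and 1, Itgb3, lower. Their summed level was 26.3 to 37.9 CPM in MZ and 58.1 to 65.0 in FO libraries, most of the latter being Itgb3 (61.3, 54.2, 58.4 and 54.7 CPM), an integrin chain that B cells also express. Of 15 tested macrophage markers 10 were higher and 1 lower, against 42.6% and 38.8% of all tested genes. The macrophage list summed to 76.8 to 92.9 CPM in MZ and 44.5, 148, 58.0 and 66.6 in FO libraries. The high value in FO replicate 4 rests mainly on Mpeg1, which encodes perforin-2 (20.8, 93.3, 30.9 and 37.1 CPM), and Lyz2, the myeloid lysozyme gene, was at 4.73 ± 0.650 against 0.619 ± 0.186. The part of these cells in the results below was not tested.

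The 2 transcriptomes differed widely. Of the tested genes 11278 were called (81.5%), 5904 higher (42.6%) and 5374 lower (38.8%). Since most genes were called, a difference of at least 2-fold is counted separately: 5477 genes met it (39.6%), 2812 of them higher (20.3%) and 2665 lower (19.3%). The values of the 2 groups did not overlap at 10662 genes (77.0%). The median log2 difference over all tested genes was 0.055, and the median of its absolute value was 0.745. Among the 9397 tested genes with no exon base under an exon of another gene on the other strand, 7645 were called (81.4%), and 3793 were called and at least 2-fold different (40.4%). Against these backgrounds a count of called members says little for most gene groups, and the size of the differences carries more. Every list count below is to be read beside these shares. In the authors' deposited table, 13082 genes have an adjusted p under 0.05, and 11154 of the genes called here are among them with the same sign.

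**Figure D1:**
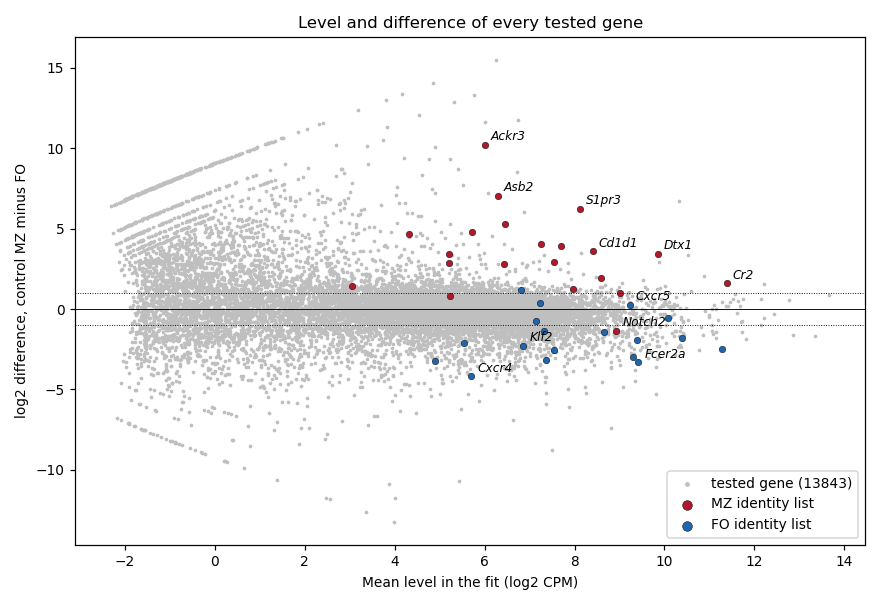
Mean level (log2 CPM, horizontal) and log2 difference, control MZ minus FO (vertical), of each tested gene (grey), with the genes listed for MZ identity in red and those listed for FO identity in blue. Dotted lines mark a 2-fold difference, the slanted rows of grey points at low levels are genes with few or no counts in 1 group, and the red points lie above the zero line except Notch2.

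Nearly all genes that mark the MZ subset were higher in MZ cells. Of 21 tested genes known for MZ identity, 20 were higher and 1, Notch2, was lower, 19 were at least 2-fold higher, and the 2 groups did not overlap at any of the 21. Over all tested genes 20.3% were at least 2-fold higher, and the groups did not overlap at 77.0%. The median log2 difference of the list was 3.43. The list holds Cr2, and that of FO identity holds Fcer2a, both of which the gates selected. Both lists were chosen with earlier results of these data known, so their counts are not an independent test. A further listed gene, Rasgef1b, did not pass the filter. S1pr3 (chr13:51408639-51422797, GRCm38), which encodes a sphingosine 1-phosphate receptor that holds MZ cells at the rim, was at 503, 519, 554 and 609 CPM in MZ and 5.78, 6.88, 8.94 and 7.13 in FO libraries. Every MZ library was far above every FO library, a 76.0-fold difference (log2 6.25, SE 0.12; edgeR adjusted p = 9.6e-13). Cd1d1, which presents lipids to NKT cells, was at 600.2, 616, 596 and 689.6 CPM in MZ and 48.8, 45.7, 57.9 and 53.4 in FO libraries (log2 3.60, SE 0.08; edgeR adjusted p = 3.31e-12). Its near-identical neighbour Cd1d2 was at 9.60 ± 0.554 against 0.398 ± 0.106, and 25% of the 50-base words of the Cd1d1 transcript also occur in transcripts of other genes, so reads of these copies may be mixed.

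The widest gap in the list was at Ackr3, an atypical receptor that scavenges the chemokine Cxcl12. It held 116, 107, 143 and 143 CPM in MZ and 0.0913, 0.0614, 0.175 and 0.0814 in FO libraries (log2 10.23, SE 0.19). Its transcript was thus close to the limit of detection in FO cells. Asb2, a ubiquitin ligase subunit, followed with 159, 169, 135 and 157 against 0.700, 1.75, 1.31 and 0.976 CPM (log2 7.03, SE 0.16). Cd9, a tetraspanin of the MZ surface, was at 126, 139, 207 and 212 against 3.32, 6.94, 3.62 and 3.99 CPM (log2 5.26, SE 0.24), with 10.7% of its exon sequence facing exons of the other strand. Cd36, a scavenger receptor for oxidised lipids, was at 329.6 ± 63.1 against 44.2 ± 3.44 CPM (log2 2.90, SE 0.12).

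Of 18 genes known for FO identity, 15 were lower in MZ cells, 13 of them at least 2-fold, and 3 were higher. Over all tested genes 19.3% were at least 2-fold lower. The median log2 difference was −2.05. Ighd, which encodes the IgD heavy chain, was at 883, 786, 778 and 604 CPM in MZ and 4299, 4196, 4152 and 4152 in FO libraries (log2 −2.46, SE 0.10; edgeR adjusted p = 4e-10). Cd55, a complement decay factor, was at 157, 146, 142 and 123 against 1098, 1025, 1189 and 1179 CPM (log2 −2.98, SE 0.08). All FO libraries were above all MZ libraries at these 2 genes. Fcgrt, the neonatal Fc receptor, was at 5.88 ± 1.44 against 54.3 ± 4.24 (log2 −3.21, SE 0.14). The 3 listed genes that were higher in MZ cells were Gpr171, an orphan-family receptor gene (157 ± 12.6 against 68.9 ± 5.47 CPM, log2 1.18), Traf5, a TNF receptor adaptor (log2 0.35, SE 0.055), and Cxcr5 (log2 0.26, SE 0.053).

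**Figure D2:**
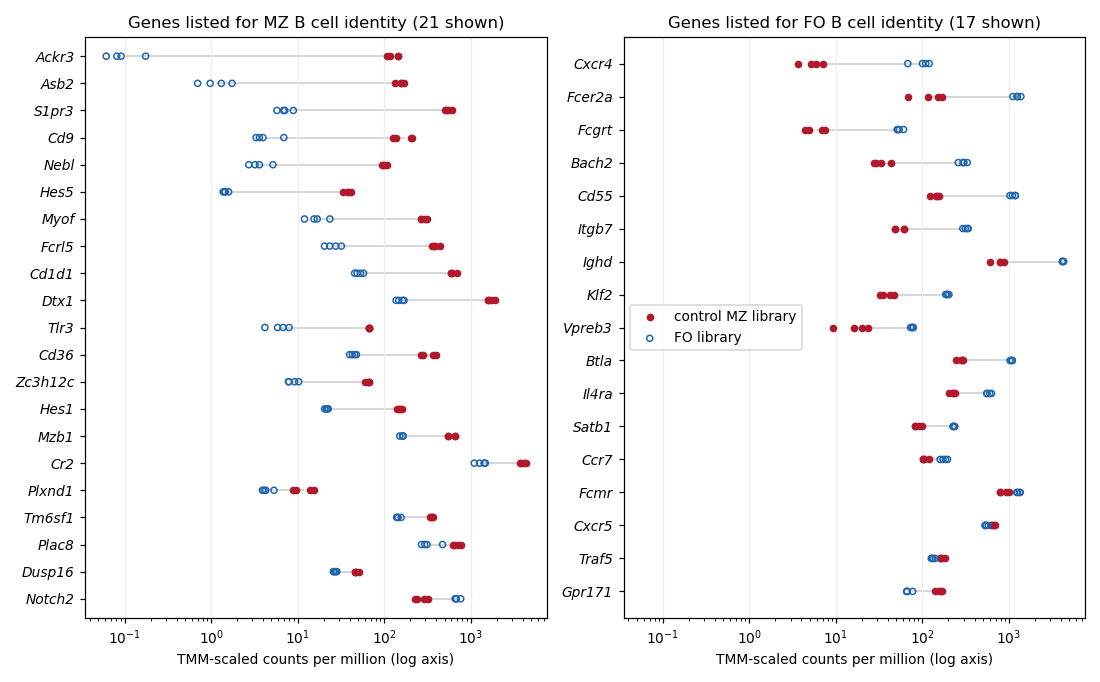
TMM-scaled CPM on a log axis for 21 tested genes listed for MZ identity (left) and 17 for FO identity (right). Filled red points are the 4 control MZ libraries, open blue points the 4 FO libraries, and grey lines join the group means. The groups do not overlap at any gene shown, and Notch2 on the left and Gpr171, Traf5 and Cxcr5 on the right run against the rest of their lists.

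Notch signalling starts when a ligand on a neighbouring cell exposes the receptor to cleavage, and the freed intracellular part joins the DNA-binding protein Rbpj and Mastermind co-activators at target genes. Notch2 and its classic targets Hes1, Hes5 and Dtx1 differed in opposite directions here. Notch2 was at 293, 325, 230.2 and 237 CPM in MZ and 664, 769.6, 682 and 687 in FO libraries (log2 −1.37, SE 0.10; edgeR adjusted p = 9.84e-08). Among 22 tested receptors, ligands and processing genes, 8 were higher and 11 lower, with 1 and 5 at least 2-fold (median log2 −0.19). The fringe genes, whose enzymes add sugars that tune ligand choice, were split: Lfng was lower (22.7 ± 4.31 against 54.7 ± 4.53 CPM, log2 −1.27) and Rfng higher (38.0 ± 2.70 against 20.6 ± 1.06 CPM, log2 0.88). Mib1, a ligase that acts on Notch ligands, was lower (log2 −1.30, SE 0.08). Among subunits of gamma-secretase, which makes the final cut, these were slightly higher: Ncstn (log2 0.46, SE 0.04) and Psenen (log2 0.35, SE 0.06).

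The classic targets were far higher in MZ cells. Hes1, a transcriptional repressor, held 151, 163, 143 and 150.1 CPM in MZ and 22.7, 21.5, 20.5 and 22.0 in FO libraries (log2 2.81, SE 0.06; edgeR adjusted p = 1.41e-12). Hes5, its relative, held 33.5, 38.3, 41.6 and 38.5 against 1.46, 1.60, 1.43 and 1.38 (log2 4.69, SE 0.10). Dtx1, a ubiquitin ligase that modulates Notch, held 1571, 1578, 1716 and 1906 against 138, 170.1, 164 and 148 (log2 3.45, SE 0.09; edgeR adjusted p = 8.68e-12). No FO library reached the level of any MZ library at these genes, and 31.8% of the Hes5 exon sequence faces exons of the other strand. The list of nuclear partners and targets holds Cr2, which the gates selected. Over all tested genes 20.3% were at least 2-fold higher and 19.3% at least 2-fold lower. Over the 23 tested nuclear partners and targets, 8 were at least 2-fold higher and 5 at least 2-fold lower (median log2 −0.12). The lower ones included the co-activators Maml3 (3.28 ± 0.142 against 15.1 ± 1.94 CPM, log2 −2.20) and Maml1 (14.6 ± 1.28 against 65.0 ± 3.15, log2 −2.16) and the acetyltransferase gene Kat2b (log2 −1.28). Nrarp, a target that feeds back on the pathway, was lower as well (0.442 ± 0.268 against 3.40 ± 0.252 CPM), with 79.4% of its exon sequence facing exons of the other strand.

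The promoters of 2 of these called targets are shown because they hold TGGGAA, the core of the sequence that Rbpj binds. RefSeq's promoter table (GRCm38.p6; 250 bases before to 50 after the start) had an entry for 8 listed targets: Cr2, Hes5, Dtx1, Nrarp and Il2ra, which were called, Dtx2 and Gpr183, which were not, and Ptcra, which was not tested. The call of Cr2 is not a result, since the gates selected this gene. The promoters of Hes1 and Myc were not analysed here. Capitals mark TGGGAA or its reverse complement TTCCCA. The Hes5 promoter is chr4:154960673-154960972 on the plus strand and the Cr2 promoter chr1:195176670-195176969 on the minus strand, each written 5′ to 3′ along its gene.
Hes5: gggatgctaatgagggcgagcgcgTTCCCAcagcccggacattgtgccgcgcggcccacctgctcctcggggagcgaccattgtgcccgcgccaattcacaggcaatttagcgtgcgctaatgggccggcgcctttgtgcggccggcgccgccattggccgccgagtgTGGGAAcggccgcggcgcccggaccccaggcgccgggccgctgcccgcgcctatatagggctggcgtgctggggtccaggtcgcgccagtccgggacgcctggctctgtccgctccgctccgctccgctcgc
Cr2: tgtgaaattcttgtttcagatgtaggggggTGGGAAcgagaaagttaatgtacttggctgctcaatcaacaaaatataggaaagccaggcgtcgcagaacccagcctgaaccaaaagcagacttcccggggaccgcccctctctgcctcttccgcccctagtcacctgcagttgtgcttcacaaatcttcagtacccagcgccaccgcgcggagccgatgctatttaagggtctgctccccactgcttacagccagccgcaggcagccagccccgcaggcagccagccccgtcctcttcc
In Hes5 the motif began 226 bases before the start on the opposite strand and 82 bases before it on the strand of the gene, and in Cr2 220 bases before it on the strand of the gene. All 3 matches were also matches to the longer GTGGGAA, read on their own strand. The letters TGGGAA were not found in these windows of Dtx1, Nrarp or Il2ra. They were found in those of the genes that were not called or tested, 1 time each in Dtx2 and Gpr183 and 2 times in Ptcra, with no match to GTGGGAA, so their presence did not set called targets apart. On either strand TGGGAA lay in 25.5% of all 27025 promoters and GTGGGAA in 6.39%. Among tested genes 22.7% of 9637 promoters held TGGGAA. Among genes at least 2-fold higher in MZ cells 23.2% of 1570 promoters held it, and among those at least 2-fold lower 20.6% of 1683. For GTGGGAA the shares of tested, higher and lower genes were 6.08%, 6.31% and 5.47%.

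Position in the spleen is set by receptors that read sphingosine 1-phosphate, chemokines and oxysterols. Per kilobase of exon, S1pr1 and S1pr3 were the most abundant sphingosine 1-phosphate receptor transcripts in MZ cells, at 376 ± 22.3 and 122 ± 10.5 CPM per kb, and S1pr1 and S1pr4 in FO cells, at 109 ± 18.4 and 54.9 ± 4.16. S1pr1, the main egress receptor, was at 1119, 1064, 1214 and 1188 CPM in MZ and 273, 397, 302 and 360.2 in FO libraries (log2 1.78, SE 0.11; edgeR adjusted p = 1.03e-08). S1pr4 went the other way, with 27.2, 26.9, 29.8 and 30.9 against 119, 132, 129.6 and 143 CPM (log2 −2.19, SE 0.07). The groups overlapped at neither receptor. S1pr2, which confines germinal centre B cells, was low in both (1.24 ± 0.216 against 2.16 ± 0.775 CPM, log2 −0.799) and not called without FO replicate 4 (log2 −0.55), and S1pr5 was at 0 counts in MZ and 15 counts over the 4 FO libraries. Klf2, a transcription factor that drives S1pr1 in lymphocytes, was at 32.5, 35.4, 47.2 and 42.2 CPM in MZ and 193, 193, 186 and 203 in FO libraries (log2 −2.30, SE 0.10). Over the 16 tested genes of this axis 2, S1pr3 and S1pr1, were at least 2-fold higher and 5 at least 2-fold lower (median log2 −0.24). Besides Klf2 and S1pr4, the lower ones were Spns2, a transporter of the lipid (13.7 ± 1.46 against 58.2 ± 3.18 CPM), Gna13, the G protein subunit that opposes migration (71.1 ± 9.40 against 236 ± 2.82), and Cd69, which pulls S1pr1 off the surface (38.5 ± 0.643 against 78.6 ± 7.66).

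Chemokine receptors were mixed. Cxcr5, which draws B cells to the follicle, was nearly level, with 618, 634, 673 and 682 CPM in MZ and 533, 575, 529.7 and 545 in FO libraries (log2 0.26, SE 0.053). Cxcr4, the signalling receptor for Cxcl12, was at 5.96, 5.21, 7.01 and 3.60 against 67.7, 99.96, 109 and 119.8 CPM (log2 −4.18, SE 0.21; edgeR adjusted p = 2.06e-09). The 2 receptors of Cxcl12, Cxcr4 and Ackr3, thus ran in opposite directions. Per kilobase, Ackr3 stood at 38.1 ± 5.55 and Cxcr4 at 3.01 ± 0.793 CPM per kb in MZ cells, and 0.0306 ± 0.0150 and 54.9 ± 12.5 in FO cells. Ccr7, which guides cells to the T zone, was at 106 ± 7.70 against 178 ± 15.1 CPM (log2 −0.74, SE 0.07), and Ccr6, the receptor for Ccl20, at 73.6 ± 18.9 against 234 ± 16.1 (log2 −1.67). Gpr183, the oxysterol receptor that moves activated B cells outwards, was not called (165, 161, 155 and 125 CPM in MZ and 156, 173, 156 and 173 in FO libraries, log2 −0.12; edgeR adjusted p = 0.185). P2ry10, a lysophospholipid receptor, was lower (53.5 ± 3.67 against 309 ± 9.06 CPM). Ackr2, a scavenger of inflammatory chemokines (69.7, 78.6, 94.7 and 98.3 against 2.31, 5.71, 2.69 and 2.28 CPM), Rgs10, a brake on G protein signals (35.6, 38.1, 52.0 and 54.2 against 1.22, 2.46, 2.02 and 1.22), and Gpr34, a lysophosphatidylserine receptor (20.1 ± 5.997 against 3.70 ± 0.706), were higher. Of the 24 tested genes in the list 8 were at least 2-fold higher and 6 at least 2-fold lower (median log2 0.46).

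Integrins bind the stromal ligands Icam1 and Vcam1 that retain MZ cells. The subunits differed in direction. Itgb1, the beta 1 chain, was at 97.5, 111, 126 and 125 CPM in MZ and 38.2, 40.7, 38.8 and 37.5 in FO libraries (log2 1.56, SE 0.08). Itgb7, the beta 7 chain of the gut-homing integrin, was at 61.8, 61.8, 48.6 and 47.9 against 331, 339, 293 and 313 (log2 −2.53, SE 0.09; edgeR adjusted p = 1.53e-10). Itga4, the alpha 4 chain that pairs with either, was at 164, 151, 135 and 141 against 738, 704, 823 and 785 (log2 −2.37, SE 0.07). MZ libraries were above FO libraries at Itgb1 and below them at Itgb7 and Itga4, with no overlap. The subunits of LFA-1, the Icam1 receptor, differed less: Itgal by log2 0.13 (SE 0.07; edgeR adjusted p = 0.0869; called without FO replicate 4, log2 0.16) and Itgb2 by log2 0.53 (SE 0.054). Rasgrp2, which switches on Rap1 to activate integrins, was at 99.6 ± 5.20 against 736 ± 38.5 CPM (log2 −2.89, SE 0.06). Plxnd1, a semaphorin receptor, was higher (11.96 ± 3.21 against 4.41 ± 0.636 CPM). Over 44 adhesion genes 7 were at least 2-fold higher and 8 lower (median log2 0.19), shares near those of all genes.

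**Figure D3:**
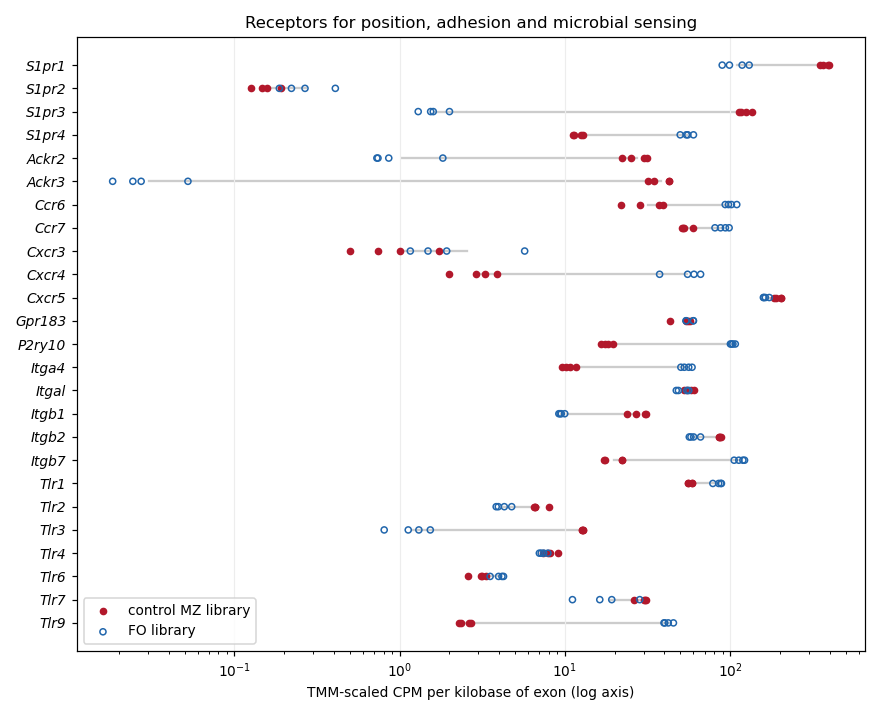
TMM-scaled CPM per kilobase of exon on a log axis for receptors of position, adhesion and microbial sensing. Filled red points are control MZ libraries, open blue points FO libraries, and grey lines join the group means. Ackr3, S1pr3 and Tlr3 lie to the right in MZ libraries and Cxcr4 and Tlr9 in FO libraries, while Cxcr5, Gpr183 and Tlr4 lie close together.

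Toll-like receptors sense microbial products, and 2 of them differed by more than 10-fold in opposite directions. Tlr3, which reads double-stranded RNA, was at 66.5, 67.2, 67.4 and 66.4 CPM in MZ and 4.20, 7.98, 5.87 and 6.81 in FO libraries (log2 3.43, SE 0.14; edgeR adjusted p = 3.47e-10). Tlr9, which reads CpG DNA, was at 9.47, 9.18, 7.98 and 8.15 against 139.9, 158, 138 and 147 (log2 −4.07, SE 0.07; edgeR adjusted p = 6.37e-13). Neither showed overlap between the groups. Per kilobase, the order in MZ cells was Tlr1 (57.0 ± 2.0 CPM per kb), Tlr7 (29.4 ± 2.23), Tlr3 (12.8 ± 0.0943), Tlr4 (8.13 ± 0.677), Tlr2 (6.94 ± 0.723), Tlr6 (3.05 ± 0.324) and Tlr9 (2.50 ± 0.212), mean ± SD of 4 libraries. In FO cells it was Tlr1 (85.1 ± 4.54), Tlr9 (41.9 ± 2.55), Tlr7 (18.7 ± 7.24), Tlr4 (7.38 ± 0.384), Tlr2 (4.22 ± 0.416), Tlr6 (3.98 ± 0.322) and Tlr3 (1.19 ± 0.307). Neighbours whose mean ± SD ranges meet, Tlr4 and Tlr2 in MZ cells and Tlr2 and Tlr6 in FO cells, are not separated. Tlr4, the lipopolysaccharide receptor, was not called (log2 0.14; edgeR adjusted p = 0.0792; called without MZ replicate 6, log2 0.18), while Ly96, its co-receptor MD-2, was at 28.8, 29.1, 33.7 and 30.5 CPM in MZ and 3.35, 3.04, 3.27 and 3.42 in FO libraries (log2 3.22, SE 0.09). Irf7, an interferon-inducing factor downstream of these receptors (log2 1.29), and Cnpy3, a chaperone that they need (log2 1.0002), were higher, and Cd180, a Tlr4-like protein of B cells, was lower (log2 −0.929). Over the 32 tested genes 4 were at least 2-fold higher and 2, Tlr9 and Ticam2, at least 2-fold lower (median log2 0.23). Both shares were below those of all tested genes (20.3% and 19.3%).

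Receptors for complement, antibody and oxidised lipids ran in both directions. This list takes in Cr2 and Fcer2a, which the gates selected, so these 2 members are not a result. Of 21 tested, 8 were at least 2-fold higher and 4 at least 2-fold lower (median log2 −0.30). Over all tested genes the shares were 20.3% and 19.3%. Fcrl5, an inhibitory Fc receptor-like protein of MZ and B-1 cells, was at 362, 376, 384 and 447 CPM in MZ and 20.5, 32.1, 27.5 and 23.5 in FO libraries (log2 3.92, SE 0.13). Cd59a, an inhibitor of the complement membrane attack complex, was at 10.3 ± 1.52 against 0.238 ± 0.117 CPM, opposite in direction to the complement regulators Cd55, given above, and Cd46 (1.58 ± 0.476 against 5.43 ± 1.39). Fcamr, a receptor for IgM and IgA, was higher (5.20 ± 0.819 against 0.908 ± 0.240 CPM).

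In antigen presentation, the CD1d genes were higher and genes of the class II pathway were split. Cd74, the invariant chain, was higher (16765, 16793, 17325 and 16024 CPM in MZ and 9154, 9945, 8847 and 8826 in FO libraries, log2 0.86). Ciita, the master regulator of class II transcription, was lower (358 ± 26.6 against 933 ± 58.0 CPM, log2 −1.38). H2-Ob, a chain of the peptide-loading inhibitor H2-O, was lower (708 ± 33.4 against 2009 ± 25.6, log2 −1.504), as was the class II chain H2-Eb2 (48.0 ± 6.64 against 420.5 ± 59.0). March1, a ligase that removes class II and CD86 from the surface, was lower too (127 ± 4.79 against 494 ± 29.2, log2 −1.96). The costimulatory genes Cd86 (106, 107, 107 and 124 against 28.9, 40.2, 31.2 and 31.9 CPM, log2 1.75) and Cd80 (3.25 ± 0.627 against 0.487 ± 0.0972 CPM) were higher. Of 28 tested genes 5 were at least 2-fold higher and 7 lower (median log2 −0.048).

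Among heavy chain constant genes Ighm was higher and Ighd lower, the directions known for surface IgM and IgD on these subsets. Ighm, the IgM chain, was at 7357, 7827, 8852 and 9332 CPM in MZ and 5706, 5941, 5544 and 5478 in FO libraries (log2 0.56, SE 0.08; edgeR adjusted p = 5.44e-05), against the Ighd values given above. The ratio of their means, Ighm over Ighd, was 10.9 in MZ and 1.35 in FO cells, in counts not divided by length. The light chain genes Igkc (log2 0.63, SE 0.07) and Iglc2 (log2 0.60, SE 0.09) were higher. Switched isotypes were at low levels and lower in MZ cells, with Ighg2b at 7.15 ± 3.08 against 20.4 ± 9.29 CPM and Igha at 6.0004 ± 0.610 against 18.1 ± 2.14.

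Beneath the receptor, 4 of 55 B cell receptor signalling genes were at least 2-fold higher and 9 at least 2-fold lower (median log2 −0.15). Both shares were below those of all tested genes (20.3% and 19.3%). Ptpn22, a phosphatase that restrains the receptor, was at 181, 204, 217 and 244 CPM in MZ and 32.1, 38.2, 30.9 and 28.3 in FO libraries (log2 2.71, SE 0.11). Its partner Csk, a kinase that holds Src-family kinases inactive, was lower (248 ± 16.1 against 688 ± 29.3 CPM, log2 −1.47). Nfatc1, a calcium-driven transcription factor (544 ± 41.8 against 208 ± 3.63, log2 1.38), and the adaptor Blnk (780.2 ± 8.69 against 387 ± 5.02, log2 1.01) were higher. Cd5, a dampening co-receptor of B-1 cells, was low but higher (4.09 ± 1.41 against 0.982 ± 0.258). Itpkb, which limits calcium and diacylglycerol signals (log2 −1.96), Dgka, which consumes diacylglycerol (log2 −1.79), and Rasgrp3, which passes it on to Ras (log2 −1.37), were lower.

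MZ cells are known for rapid antibody secretion. Of 48 tested secretory and unfolded protein response genes, 25 were higher and 18 lower, but only 6 and 3 by at least 2-fold (median log2 0.23). The large differences lay in few genes. Pdia4, a disulphide isomerase of the endoplasmic reticulum, was at 1516, 1515, 1752 and 1838 CPM in MZ and 206, 253, 217 and 198 in FO libraries (log2 2.92, SE 0.09; edgeR adjusted p = 5.21e-11). Mzb1, which helps IgM assembly, was at 605 ± 69.5 against 162 ± 6.44 (log2 1.90), with 74.3% of its transcript words found in transcripts of other genes. Prdm1, the driver of plasma cell fate, was low in both but higher in MZ libraries, at 9.93, 7.12, 10.4 and 10.7 against 1.34, 1.44, 1.69 and 1.41 CPM (log2 2.69, SE 0.17). Xbp1, the unfolded protein response factor, was at 195 ± 9.36 against 89.1 ± 10.7 CPM (log2 1.13, SE 0.08). Hyou1, another chaperone of the same compartment, ran the other way (44.8 ± 2.47 against 184 ± 27.9, log2 −2.04). Genes of finished plasma cells were higher in FO libraries: Sdc1, which encodes CD138, was at 0.702, 0.789, 1.54 and 0.124 CPM in MZ and 10.3, 8.90, 10.9 and 10.7 in FO libraries, and Jchain at 1.14 ± 0.487 against 5.51 ± 3.42.

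Transcription factors were mostly lower in MZ cells. Of 52 tested, 11 were higher and 35 lower, 3 and 21 of them by at least 2-fold (median log2 −0.59). Over all tested genes 42.6% were higher and 38.8% lower, 20.3% and 19.3% by at least 2-fold. The lower factors include those of B cell identity and of the germinal centre path. Bach2, a repressor of plasma cell fate, was at 42.8, 33.3, 29.1 and 27.7 CPM in MZ and 259, 294, 329.7 and 302 in FO libraries (log2 −3.16, SE 0.13). Bcl6, the germinal centre factor, was at 27.0, 27.0, 28.0 and 29.1 against 192, 161, 178 and 188 (log2 −2.69, SE 0.06). Pax5, the keeper of B cell identity, was at 50.7, 48.4, 27.6 and 39.3 against 266, 251, 262 and 253 (log2 −2.64, SE 0.15) and 8.60% of its exon sequence faces exons of the other strand. Every FO library was above every MZ library at the 3 genes. At least 2-fold higher were Id2, an inhibitor of E proteins (44.8, 46.2, 51.0 and 37.4 against 3.50, 3.68, 2.40 and 2.09 CPM, log2 3.95), Myc, the growth regulator (231, 224, 242 and 304 against 44.7, 54.6, 39.5 and 41.2 CPM, log2 2.47, SE 0.12; edgeR adjusted p = 1.35e-09), and Bhlhe41, a regulator of B-1 cells (22.8 ± 2.76 against 4.45 ± 1.43 CPM, log2 2.36). Irf4 and Irf8, interferon regulatory factors that steer B cell fate, differed little. Irf4 was at 168, 167, 169.6 and 175 CPM in MZ and 205, 179, 199.6 and 212 in FO libraries (log2 −0.23, SE 0.06; edgeR adjusted p = 0.00234), and it was not called with upper-quartile scaling (log2 −0.09). Irf8 was at 528, 487, 471 and 555 against 537, 679, 518 and 530.4 and was not called (log2 −0.15, SE 0.09; edgeR adjusted p = 0.132). With GC content and length trends removed, 16 factors were higher and 31 lower.

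NF-kB subunits and inhibitors were split. Nfkb1, which encodes p105 and p50, was lower (99.3 ± 5.29 against 358 ± 15.03 CPM, log2 −1.85), as was Rel (59.6 ± 8.28 against 141 ± 4.61, log2 −1.24). Traf1, a TNF receptor adaptor (172 ± 20.9 against 53.6 ± 5.25, log2 1.68), and the inhibitors Nfkbid (log2 1.27) and Nfkbie (log2 1.19) were higher by more than 2-fold, and Relb, the partner of p52, was higher by log2 0.87 (SE 0.04). Among 35 BAFF, TNF and cytokine receptor genes, 6 were at least 2-fold higher and 6 lower (median log2 0.31). Il9r, the interleukin 9 receptor, was at 556, 554, 569.5 and 600.0 CPM in MZ and 119, 166, 137 and 139 in FO libraries (log2 2.02, SE 0.09). Csf2rb, the shared beta chain of the interleukin 3, interleukin 5 and GM-CSF receptors, was at 102, 115, 116 and 129.6 against 7.79, 13.5, 9.23 and 9.90 (log2 3.52, SE 0.14). Its partner Il5ra went the other way, with 8.68 ± 3.16 against 49.998 ± 5.09 CPM (log2 −2.52). Tnfrsf21, a death receptor, was higher (42.5 ± 1.74 against 1.86 ± 0.679), and Tnfrsf14, the herpesvirus entry mediator, lower (4.36 ± 0.818 against 30.8 ± 3.02), together with the interleukin 6 receptor gene Il6ra (7.55 ± 0.951 against 35.2 ± 3.04).

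In the BCL2 family, which decides between survival and apoptosis, 4 of 15 tested genes were at least 2-fold higher and 4 lower (median log2 0.37). Over all tested genes the shares were 20.3% and 19.3%. The lower ones with the largest differences were Bak1, a pore-forming effector (1.71 ± 0.190 against 54.1 ± 7.03 CPM, with 25.5% of exon bases under the other strand), the BH3-only gene Bmf (7.72, 6.07, 6.005 and 6.91 against 86.4, 55.3, 87.6 and 91.2 CPM, log2 −3.58, SE 0.16) and the protective gene Bcl2l2 (2.19 ± 0.700 against 18.9 ± 0.918). Higher were the BH3-only genes Bbc3, which encodes Puma (9.44 ± 2.21 against 1.30 ± 0.284), and Bid (272, 285, 298 and 276 against 54.8, 54.2, 57.4 and 51.9 CPM, log2 2.37).

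Of 28 tested genes of quiescence and G1 control 9 were higher and 10 lower. Several of the lower ones are known to hold cells at rest. Cdkn1b, which encodes the cell cycle inhibitor p27, was at 22.4, 16.9, 22.0 and 16.9 CPM in MZ and 267, 273, 306 and 309.7 in FO libraries (log2 −3.88, SE 0.11; edgeR adjusted p = 1.32e-11). Foxo3, a transcription factor of quiescence, was at 7.94, 8.25, 8.16 and 6.66 against 83.3, 83.9, 94.4 and 92.9 (log2 −3.51, SE 0.08). Tsc1, a brake on mTOR, was lower as well (40.4 ± 3.28 against 114 ± 6.26, log2 −1.501). The quiescence and G1 list as a whole had 2 members at least 2-fold higher and 5 lower of 28 (median log2 0.04). Over all tested genes the shares were 20.3% and 19.3%, so the list as a whole did not lean towards lower genes. Proliferation genes were at low levels, with a summed level of 723 to 819 CPM in MZ and 796 to 894 in FO libraries for the list. Of 39 tested, 14 were higher and 10 lower, 7 and 1 by at least 2-fold, and 9 were higher without FO replicate 7 or without FO replicate 8. With the replicate number as a block 7 were higher and 13 lower, and with upper-quartile scaling 18 and 6, so the list gives no stable direction. Nusap1, a spindle protein, was at 9.95, 9.88, 12.4 and 14.8 against 1.67, 3.35, 2.02 and 2.30 CPM (log2 2.33), and E2f1, the S phase factor, at 14.4, 15.2, 17.1 and 19.7 against 2.62, 4.85, 3.71 and 3.58 (log2 2.17), while E2f2, its relative that is known to restrain lymphocyte proliferation, was lower (44.9 ± 2.59 against 102 ± 13.1, log2 −1.18).

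Growth and metabolism genes were split. Of 36 ribosome biogenesis and translation genes 21 were higher and 14 lower, with 2, Srm, the spermidine synthase gene (67.9 ± 6.92 against 18.9 ± 1.41 CPM), and the hypusinated factor Eif5a (683 ± 48.9 against 298 ± 23.2), at least 2-fold higher. The 3 at least 2-fold lower were Eif4ebp2, a translation inhibitor (20.1 ± 0.923 against 78.1 ± 1.93 CPM), and the elongation factors Eef1a1 (3685 ± 312 against 11223 ± 369, with 60.0% of its transcript words found in other genes) and Eef2 (1199 ± 84.7 against 3299 ± 116). The list summed to 9237 to 10422 CPM in MZ and 19056 to 20376 in FO libraries, the greater part of it Eef1a1 in the latter. Of 52 nuclear respiratory chain genes 30 were higher and 12 lower (median log2 0.25), and 7 were lower without FO replicate 3. The balance depended on scaling, with 24 higher and 19 lower once GC content and length trends were removed, and 35 and 5 with upper-quartile scaling. In glycolysis, Ldha, lactate dehydrogenase A, was at 385, 401, 437 and 451 CPM in MZ and 194, 227, 182 and 179.6 in FO libraries (log2 1.097, SE 0.08). Hk2, an inducible hexokinase, was lower (4.06 ± 0.618 against 9.63 ± 0.605, log2 −1.25). In lipid metabolism 5 of 38 genes were at least 2-fold higher, among them Apoe, an apolipoprotein (170.2, 174, 257 and 258 against 83.8, 107, 84.2 and 97.3 CPM, log2 1.21), and the desaturase gene Scd2 (log2 1.13). Abca1, a cholesterol exporter (log2 −1.73), and Lss, lanosterol synthase (log2 −1.40), were among the 9 that were at least 2-fold lower.

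Interferon response genes were mostly higher or not called. Of 44 tested 25 were higher and 2 lower, 15 and 1 by at least 2-fold (median log2 0.70). Over all tested genes 42.6% were higher and 38.8% lower, 20.3% and 19.3% by at least 2-fold. The FO libraries were uneven: the list summed to 4754, 6711, 5076 and 5395 CPM, against 6797, 6547, 7070.4 and 8179 in MZ libraries. FO replicate 4 overlapped the MZ range, and without it 33 were higher and 2 lower. Without MZ replicate 6, 4 were lower. Ifit1, an antiviral RNA-binding protein, was at 26.5, 26.3, 23.3 and 37.3 CPM in MZ and 1.096, 6.75, 2.66 and 6.72 in FO libraries (log2 2.71, SE 0.39). MZ libraries lay above FO libraries here, FO replicates 3 and 7 lowest. Ifit3, its partner, was at 118, 87.4, 103 and 139.8 against 4.29, 25.4, 12.8 and 21.6, and Socs1, which shuts off cytokine signals, at 13.7, 13.2, 14.3 and 60.3 against 1.61, 2.79, 0.701 and 1.41 (log2 3.97, SE 0.58). MZ replicate 6 was far above the other MZ libraries at Socs1 (log2 3.08 without it), and Ifit3 shares 51.5% of its transcript words with other genes.

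Immediate-early genes, which respond within minutes to stimuli and to tissue handling, ran in both directions. Fos, a subunit of AP-1, was at 1.26, 0.894, 1.63 and 0.945 CPM in MZ and 134, 138, 49.1 and 30.9 in FO libraries (log2 −6.199, SE 0.54). Jun, its partner, was at 12.6, 15.8, 12.4 and 22.2 against 139.5, 155, 56.4 and 49.98 (log2 −2.67, SE 0.36), and Fosb, a Fos relative, at 1.101 ± 0.231 against 7.47 ± 3.28. FO replicates 3 and 4 were the highest at Fos and Jun, and without both the log2 differences were −5.10 and −1.79. Higher in MZ cells were Dusp2 (323, 338, 331 and 318 against 123, 136, 87.8 and 90.5 CPM, log2 1.58) and Dusp5 (8.68 ± 1.05 against 2.18 ± 0.522), phosphatases that act on MAP kinases, besides Myc and Nfkbid. Over the list 10 of 27 were higher and 14 lower, or 11 and 13 without FO replicates 3 and 4, an alternative chosen after the values were seen. Heat shock genes summed to 4159 and 4740.1 CPM in those libraries, to 3231 and 3263 in FO replicates 7 and 8, and to 2777 to 3105 in MZ libraries. Whether cell handling bears on these genes was not tested.

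RNA decay factors and small GTPases of the GIMAP family were mostly lower. Over all tested genes 38.8% were lower, and 19.3% were at least 2-fold lower. Of 23 decay genes 9 were at least 2-fold lower, with Dcp2, the decapping enzyme (16.7 ± 1.78 against 108 ± 6.74 CPM), and Rc3h1, which encodes roquin-1 (35.7 ± 3.41 against 159 ± 7.30), at the head, and 1, Zc3h12c, which encodes the endonuclease regnase-3, higher (65.8, 67.5, 60.4 and 67.3 against 7.85, 10.3, 9.23 and 7.95 CPM, log2 2.88). Zfp36l1, floxed in the FO cells and counted here over all exons, was at 114 ± 6.25 against 357 ± 19.4 CPM, with 55.9% of its exon sequence facing exons of the other strand. Gt(ROSA)26Sor, the non-coding gene of a locus much used for transgenes, was at 0.823, 0.315, 0.619 and 0.497 CPM in MZ and 30.9, 26.8, 31.1 and 32.1 in FO libraries (log2 −5.72). The genotypes differ in ERT2cre, whose promoter is unstated, and cell type, kit and read layout differ with them. Whether any of these bears on this gene was not tested. Of 8 GIMAP genes, which support lymphocyte survival, 7 were lower and 1, Gimap1, higher (log2 0.60, with 36.0% of exon bases under the other strand). Gimap8 was at 128, 119.8, 100.7 and 96.8 against 710.4, 718, 761 and 756 CPM (log2 −2.73, SE 0.09), and Gimap4 at 196 ± 17.5 against 836 ± 127 (log2 −2.09).

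Genes listed for germinal centre and transitional B cells were mostly lower in MZ than in FO libraries. Over all tested genes 38.8% were lower and 42.6% higher. Of 11 germinal centre markers 8 were lower and 2 higher (median log2 −2.69). The higher ones were Fas, a death receptor (log2 0.76), and Efnb1, an ephrin (log2 0.34). Efnb1 lost its call without any single FO library, without MZ replicate 4 or 5, and with the alike libraries summed. It was also not called with the replicate number as a block or with GC content and length trends removed. Mybl1, a germinal centre transcription factor, was at 0.121, 0.499, 0.344 and 0 CPM in MZ and 4.90, 8.10, 6.08 and 5.18 in FO libraries. Rgs13, which dampens chemokine signals there, was at 0.150 ± 0.133 against 4.14 ± 2.09. The levels in FO cells were thus a few CPM. Of 7 tested genes listed for transitional cells 6 were lower and 1, Myb, higher. Vpreb3, a pre-B cell receptor-associated protein, was at 17.3 ± 5.98 against 76.2 ± 2.44 CPM. Spn, which encodes CD43 and is taken here only as a listed gene, was at 1.61 ± 0.522 against 26.2 ± 4.16. Of 12 B-1 cell markers 4 were at least 2-fold higher and 4 lower, against 20.3% and 19.3% of all tested genes. Ahr, the aryl hydrocarbon receptor, was the most different of the higher ones (60.6, 68.0, 88.4 and 93.2 against 4.29, 6.08, 4.21 and 4.75 CPM, log2 4.01), and S100a6, a calcium-binding protein, was lower (0.846 ± 0.287 against 8.72 ± 1.31).

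**Figure D4:**
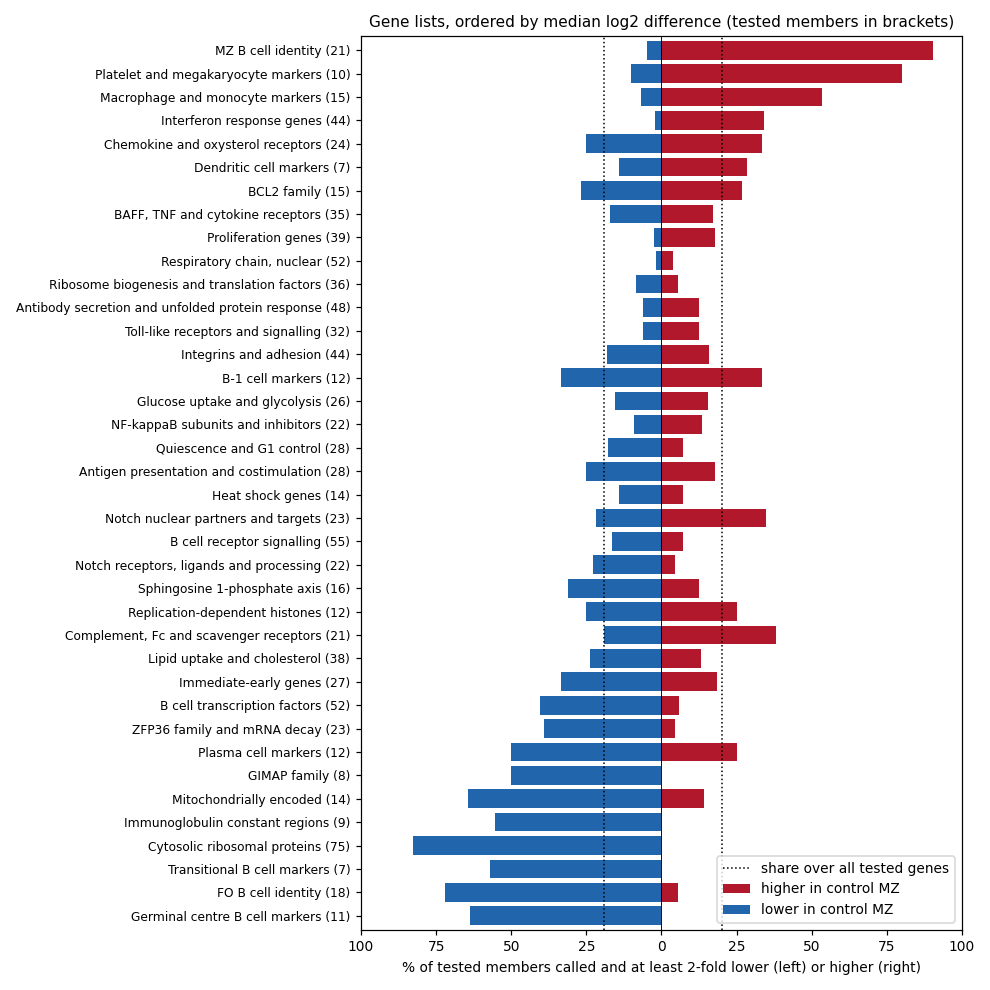
Share of tested members of each gene list (tested members in brackets, at least 7) that were called and at least 2-fold higher (red, right) or lower (blue, left) in control MZ than in FO cells, ordered by median log2 difference. Dotted lines mark the shares over all tested genes, 20.3% higher and 19.3% lower. The lists at the ends are MZ identity and germinal centre markers, and many lists between them lie near the dotted lines.

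The 15 largest differences in each direction were drawn from protein-coding genes whose mean log2 CPM was 3 or more, no overlap between groups and under 10% of exon bases under the other strand. Among the higher genes was Tnfrsf26, a TNF receptor family gene, with 15.7, 20.6, 17.7 and 17.3 CPM in MZ libraries and 0 in each FO library, at least 808-fold higher when 3 counts over the FO group are taken as the limit of detection. Its presence was not uniform among MZ libraries of the study. In Zfp36l1-deficient MZ replicates 1, 2, 7 and 8, not compared here, it held 0, 298, 593 and 1 counts. Ackr3, Asb2 and S1pr3, given above, were among the 15. Tspan15, a tetraspanin that guides the protease ADAM10, was at 86.0, 73.4, 74.1 and 63.6 against 0.152, 0.0307, 0.204 and 0.0542 (log2 9.36). ADAM10 is the protease that makes the ligand-induced cut in Notch2, and whether Tspan15 bears on that cut here was not tested. Serpine2, a secreted protease inhibitor, was at 48.3, 54.2, 41.5 and 48.5 against 0.122, 0.276, 0.117 and 0.0814 CPM (log2 8.33). Plcd3, a phospholipase C (18.3 ± 3.61 against 0.251 ± 0.0983), Alpl, tissue-nonspecific alkaline phosphatase (58.1 ± 20.3 against 1.31 ± 0.359), Rap1gap, which switches off Rap1 (72.3 ± 11.9 against 1.86 ± 1.03), and Lipc, hepatic lipase (24.3 ± 7.76 against 0.849 ± 0.686), followed. Others were Lysmd2, Ms4a7, Ceacam2, a cell adhesion molecule, and Sorbs2, a cytoskeletal adaptor, with log2 differences of 5.91, 5.85, 5.76 and 5.38. Without FO replicate 4 the log2 difference of Lipc went from 4.85 to 5.55 and that of Lysmd2 to 7.01.

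Among the lower genes Ahnak, a very large scaffold protein, was at 0.944, 1.74, 2.20 and 1.72 CPM in MZ and 144, 216, 222 and 205 in FO libraries (log2 −6.89, SE 0.20). Cacna1i, a voltage-gated calcium channel of the T type, was at 1.21, 0.999, 0.688 and 0.423 against 372, 359, 348 and 373 (log2 −8.77). Col27a1, a fibrillar collagen, was at 0.239 ± 0.0619 against 24.3 ± 10.2 (log2 −6.65). These were lower in every MZ library. Clec2d, a lectin that NK cell receptors recognise, was at 6.12, 8.23, 6.94 and 5.52 against 426, 489.9, 471 and 455 CPM (log2 −6.10). Alcam, an adhesion molecule that binds CD6 (1.27 ± 0.631 against 55.5 ± 3.34), Dusp4, a nuclear MAP kinase phosphatase (0.790 ± 0.447 against 31.5 ± 6.11), Gad1, glutamate decarboxylase (0.9298 ± 0.607 against 39.6 ± 12.6), and Ndrg1, a stress-responsive gene (0.408 ± 0.155 against 16.9 ± 3.99), belonged to the same set. Stac2, Mllt6 and Hnrnpul2 had log2 differences of −5.27, −5.23 and −4.88. Fos was among the 15 too, and the remaining genes, Rpl21, Hnrnpa3 and Hspa1b, share 26.03%, 28.8% and 61.3% of their transcript words with other genes, so that their counts are uncertain. Without MZ replicate 5 the log2 difference of Gad1 went from −5.39 to −5.98, and without MZ replicate 3 that of Hspa1b went from −5.26 to −6.45.

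Some gene classes differed with features of the transcript. The median log2 difference of genes with over 75% of exon sequence facing exons of the other strand was −2.36 (91 genes), those with 50 to 75% −0.36 (133 genes), and those with none 0.09. By exon length, the median went from 0.32 in the shortest to −0.36 in the longest of 5 equal classes of tested genes. Cytosolic ribosomal protein genes were nearly all lower: 72 of 75 were lower, 62 by at least 2-fold (median log2 −1.67). Over all tested genes the shares were 38.8% and 19.3%. The ribosomal protein genes were not lower to one degree. Rplp0, a protein of the ribosomal stalk, was at 1093 ± 79.4 against 1528 ± 89.8 CPM (log2 −0.48), with 43.4% of its transcript words found in other genes. Rps15a, of the small subunit, was at 138 ± 18.2 against 1654 ± 137 (log2 −3.58), with 6.31%. The mitochondrially encoded genes were uneven in the same way: mt-Cytb, cytochrome b, was at 2392 ± 228 against 4239.6 ± 242 CPM (log2 −0.83), mt-Atp8, an ATP synthase subunit, at 25.9 ± 2.59 against 426 ± 12.3 (log2 −4.04), and mt-Nd6, the only listed coding gene on the light strand, at 174 ± 21.9 against 30.4 ± 1.24 (log2 2.51). For these lists too, library method and cell type cannot be told apart.

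**Figure D5:**
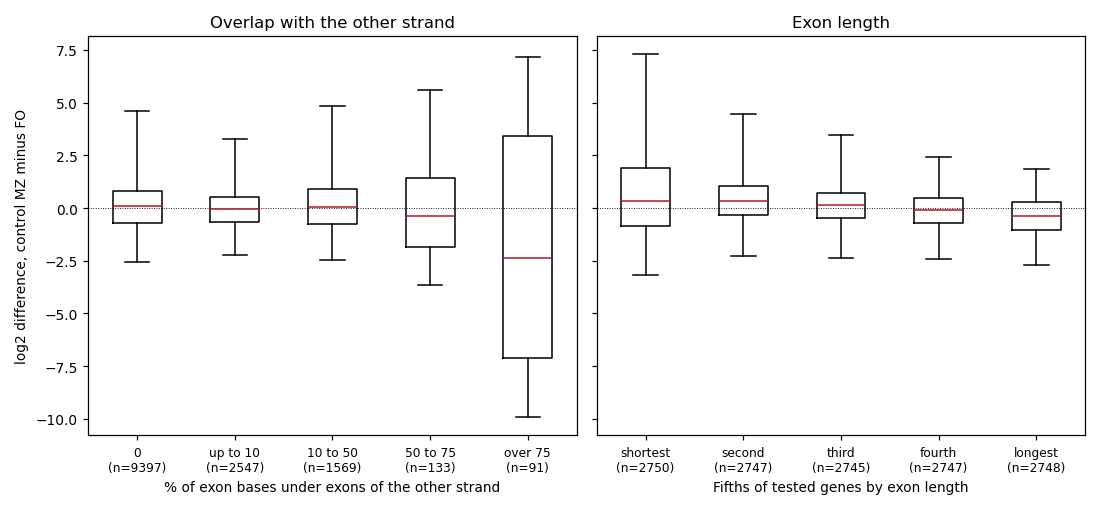
Box plots of the log2 difference, control MZ minus FO, over tested genes grouped by the share of exon sequence facing exons of the other strand (left) and by 5 equal classes of exon length (right). Boxes span the quartiles, red lines mark medians, whiskers reach the 5th and 95th percentiles, and n is the number of genes. The median is lowest for genes mostly covered by the other strand, and it falls with length from the second class to the longest.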

How the data were processed

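RNA of sorted mouse spleen B cells was sequenced. Raw counts per Ensembl gene were deposited by the authors. The submitters' processing notes name TopHat2 2.0.12, Trim Galore, DESeq2 1.10.1, HTSeq and GRCm38. No source used here gives the strand setting of counting, and the labels' extraction protocol names a SMARTer kit for all samples, where the design text gives TruSeq for FO cells. The authors' deposited DESeq2 table, with its normalised signal, log2 fold change and adjusted p-value, was used only for the overlap of calls.

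Counts of the 8 libraries were filtered (filterByExpr by group), TMM-scaled and tested in edgeR 4.0.16 (quasi-likelihood, Benjamini-Hochberg over all 13843 genes, threshold 0.05, SE from the F statistic). In data simulated at the depths of this comparison (13627 genes), 86.6%, 100% and 100% of genes changed 1.5-, 2- and 4-fold were recovered. Of the genes called there, 4.5% were unchanged ones. Only 67, 67 and 66 genes were changed, none of them at low counts, and all genes shared a common dispersion. Most genes were called in the real data, so these rates do not give the power of the real comparison. GENCODE annotation on GRCm38 gave symbols for 42548 of 43629 genes, exon lengths and overlaps. Transcript words are 50-base windows every 25 bases.

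The comparison, its markers and the 43 gene lists (1050 symbols, 2 unmatched) were chosen with earlier results of these data known. Named genes are a stated set of subset genes, the 15 largest differences each way, up to 4 members per list and direction, and receptor families. Cd69, Cd74, Pax5, Mpeg1, Rps15a, Rplp0, mt-Cytb, Cd2 and Pecam1 were added after their values were seen. A few genes of the rule are not reported here.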

Additional observations from a re-analysis of the deposited data

Results flagged for a closer look

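In groups of 4 libraries, a value was singled out where its gap to the nearest library, divided by the range of the group, was above Dixon's critical value for 4 values. Among the tested genes named in the report, 27 of 402 groups met this (6.72%), where chance gives about 1 in 20. FO replicate 4 accounts for 12 of them and MZ replicate 6 for 6. Levels below are in CPM, each followed by the range of the other 3 libraries of its group.

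FO replicate 4 was the highest FO library at genes of several kinds. Among regulators of transcription and survival these were Irf8 (679, others 518 to 537), E2f2 (121, others 94.4 to 96.0), Bak1 (64.5, others 49.9 to 51.9) and Bbc3 (1.72, others 1.11 to 1.20). Among lymphocyte GTPase and receptor genes they were Gimap4 (1025, others 748 to 794), Gpr171 (77.1, others 65.6 to 66.6) and Ackr2 (5.71, others 2.28 to 2.69). The others were Ighg2b (34.3, others 15.4 to 16.1), Lipc (1.87, others 0.438 to 0.597), Lysmd2 (0.798, others 0.108 to 0.175) and Ndrg1 (22.8, others 14.4 to 15.3). It was the lowest at the apoptosis gene Bmf (55.3, others 86.4 to 91.2). FO replicate 3 was the highest at Rpl21 (1854, others 1726 to 1742). FO replicate 3 was the lowest at Gna13 (231, others 237 to 237). FO replicate 7 was the lowest at mt-Atp8 (408, others 430.1 to 434).

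MZ replicate 6 was the highest MZ library at Cd86 (124, others 106 to 107), Socs1 (60.3, others 13.2 to 14.3), Srm (78.3, others 63.8 to 64.9) and Tlr2 (24.2, others 19.5 to 20.01). MZ replicate 6 was the lowest MZ library at Itgb3 (11.4, others 15.2 to 15.9) and mt-Nd6 (141, others 182 to 189). MZ replicate 5 was the highest MZ library at Ccr7 (118, others 102 to 104), Cd2 (126, others 103 to 106) and Gad1 (1.83, others 0.533 to 0.696). MZ replicate 5 was the lowest MZ library at Igha (5.09, others 6.26 to 6.37). MZ replicate 4 was the lowest MZ library at Tlr7 (106, others 124 to 126). MZ replicate 3 was the highest MZ library at Hspa1b (6.73, others 1.01 to 1.22). Of these, Socs1, the cytokine signalling inhibitor, and Hspa1b, a heat shock gene that shares most of its transcript words with other genes, had the widest gaps relative to the range among MZ libraries.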

How the results depend on the processing

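Cell type, kit, read layout and genotype cannot be told apart here. Leaving out each library in turn gave 11182 to 11480 called genes, 5554 to 5893 at least 2-fold and 7571 to 7807 clear of other-strand exons. The other alternatives left these 3 counts within 1.5 times, with 7575 (only genes clear of other-strand exons fitted) to 13439 (no filter on low counts) called and 3750 to 7827 at least 2-fold over these fits. With the alike libraries summed (added after seeing the data) 10947 genes were called, 5621 at least 2-fold and 7435 clear, and Efnb1 was the named gene that lost its call. Only replicate numbers 3 and 4 occur in both groups, and the deviations of the same-numbered libraries were correlated at −0.07 and −0.14, so the numbers are not taken as pairs. A fit with the replicate number as a block called 9951 genes, 5120 at least 2-fold and 6754 clear, and Myb (adjusted p = 0.0522) and Tlr7 (0.11) lost their calls, as did S1pr2 (0.0752) in edgeR's test. Upper-quartile scaling moved the median log2 difference of all genes from 0.05 to 0.19 and the share of higher among called genes from 52.3% to 58.4%, Irf4 was lost and Itgal and Tlr4 were called.

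With GC content and length trends removed Psenen lost its call, S1pr2 too, Gpr183, Itgal and Tlr4 gained theirs, the log2 difference of Bbc3 went from 2.87 to 2.25 and that of Dtx2, not called otherwise, from −0.07 to 0.27. S1pr2 also lost its call with all 12 libraries in the fit and with FO replicates 3 and 4 left out (an alternative chosen after seeing the data), and a filter at 1 CPM called Itgal and Tlr4. Of 201 named genes 10 changed their call under some alternative and no called difference reversed. Of 56 list counts of 5 or more, 16 moved by over 1.5 times under some alternative, most of them where only genes clear of other-strand exons were kept, which tests fewer genes. Genes below 1 CPM rest on at most about 40 counts per library, and their differences are the least precise.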

Other observations

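Replication-dependent histone genes were low in both groups, and their order differed from member to member. Of 12 tested, 3 were higher and 4 lower in MZ cells, and without MZ replicate 4 the number lower was 7. Without FO replicate 7, and also with upper-quartile scaling, 5 were higher. The list summed to 34.4 to 38.9 CPM in MZ and 28.9 to 51.5 in FO libraries. Of 12 plasma cell markers 3 were higher, the regulators Prdm1 and Xbp1 and the degradation factor Derl3, and 8 lower.

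The study also holds 4 Zfp36l1-deficient MZ libraries (genotype Zfp36l1fl/flERT2cre/+), which entered only the alternative fit on all 12 libraries. Tnfrsf26, which had no count in any FO library, held 0 and 1 counts in deficient MZ replicates 1 and 8 and 298 and 593 counts in replicates 2 and 7. The gene was singled out after its values were seen.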
